A study of Mus musculus with 6 samples.

Results

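Microglia are the resident macrophages of the brain, and 33 genes known to mark them were followed here through 6 libraries of mRNA bound to astrocyte ribosomes. The markers were chosen by name, with earlier results of these data known, and all 33 were found by symbol among the 23955 genes of the deposited tables. Of the libraries 3 came from diencephalon, with the surroundings of the third ventricle cut away, and 3 from cortical grey matter, stripped of meninges and white matter. All mice were C57BL/6, 3 months old, of both sexes, and of the genotype Slc1a3 +/- GFP+ Rpl22HA fl/fl. Both groups thus carried the inducible recombinase line Slc1a3tm1(cre/ERT2)Mgoe, the floxed ribosomal allele of B6N.129-Rpl22 tm1.1Psam/J and the EGFP reporter Tg(CAG-cat,-EGFP)1Rbns. Both received tamoxifen by gavage at 9 weeks, in 3 doses of 0.4 mg per g body weight spaced by 48 hours. Tamoxifen activates a Cre recombinase made from the locus of Slc1a3, the astrocyte glutamate transporter GLAST, and the recombinase switches the ribosomal protein Rpl22 to a form with a haemagglutinin tag. Each library pooled 3 mice, and RNA of the unpurified tissue was not analysed here, so the purification cannot be read from these values.

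Adult microglia depend on the receptor Csf1r and its ligands Csf1 and Il34 for survival, and on the transcription factors PU.1 (gene Spi1), Irf8 and Sall1 and on TGF-beta for their identity. At rest they survey the tissue through receptors for nucleotides (P2ry12, P2ry13) and for the neuronal chemokine Cx3cl1 (Cx3cr1). They make the C1q chains that start the classical complement cascade, and they clear debris through Trem2 and its adaptor Tyrobp and through lysosomal enzymes. On engaging damage they are known to lower the surveying receptors and to raise lysosomal and lipid genes.

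The markers were present at low levels. Every one of the 33 had at least 1 count in each of the 6 libraries, and together they took 0.0903% of the diencephalic and 0.124% of the cortical counts. The 16 astrocyte markers took 2.17% of the diencephalic and 3.23% of the cortical counts. Slc1a2 alone held 46.4% of their sum scaled to library size. That sum was 1.58-fold lower in diencephalon, or 1.4-fold lower without Slc1a2. Per length, on the deposited TPM scale, which corrects for transcript length and library total, the median level of the markers was 26.8 TPM in diencephalon and 41.2 TPM in cortical grey matter, and that of the astrocyte markers was 552 TPM in diencephalon and 408 TPM in cortical grey matter. The highest marker was C1qc at 289 TPM over all libraries, followed by C1qb at 193, Fcer1g at 166, Ctss at 130 and Csf1r at 119 TPM. The lowest were Ptprc, which encodes the leukocyte phosphatase CD45, at 2.62 TPM and the endotoxin co-receptor gene Cd14 at 4.61 TPM. Among the C1q chains, which assemble in equal numbers, C1qa was listed at 22.3 TPM, far below C1qb and C1qc.

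Library totals ran from 1733145 to 2334237 expected counts, so that 1 count was worth 0.436 to 0.621 CPM (counts scaled to a common library size). The recombinase gene's host, Slc1a3, was at 747 ± 32.1 CPM in diencephalon and 1047 ± 270 CPM in cortical grey matter (mean ± SD of 3 libraries each). The summed Y-linked genes were under 50 CPM in diencephalon replicate 2 (8.44 CPM) and cortical grey matter replicate 3 (0 CPM), and between 145 and 166 CPM in the other 4. Cortical grey matter replicate 3 stood apart from its group: its counts differed from those of replicates 1 and 2 by 7.33 and 6.25 in chi-square over degrees of freedom, where replicates 1 and 2 differed by 2.68. Counts of Rn45s, a ribosomal RNA precursor, were 3.52% to 4.48% of diencephalic and 1.77% to 2.23% of cortical totals.

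Among the promoters of the markers, a short purine-rich word was frequent. RefSeq promoter windows on GRCm38.p6 were found for 26 of the 33 markers, and the 250 bases before the start were searched on both strands for GAGGAA, a core that PU.1 is known to bind. It occurred for 16 of the 26 genes, or 61.5%, and for 25.9% of all 27025 genes with a window. Counted by window it occurred in 17 of 32 and in 23.3% of 32851. The windows below belong to 4 genes that fell in diencephalon, the first pair with the word (in capitals) and the second pair without it. Each runs 5′ to 3′ on the gene's strand and ends at the base before the annotated start.
P2ry13, chr3:59210883-59211132, minus strand: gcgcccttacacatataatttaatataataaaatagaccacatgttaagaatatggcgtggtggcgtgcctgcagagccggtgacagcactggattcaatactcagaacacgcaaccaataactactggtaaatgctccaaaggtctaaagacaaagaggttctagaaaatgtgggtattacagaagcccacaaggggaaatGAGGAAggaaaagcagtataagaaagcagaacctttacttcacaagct
Cd53, chr3:106790150-106790399, minus strand: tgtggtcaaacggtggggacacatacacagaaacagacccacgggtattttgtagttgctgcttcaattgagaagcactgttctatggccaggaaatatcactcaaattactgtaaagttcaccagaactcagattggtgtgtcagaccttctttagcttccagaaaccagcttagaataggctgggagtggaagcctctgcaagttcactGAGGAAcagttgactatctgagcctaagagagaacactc
Cx3cr1, chr9:120068297-120068546, minus strand: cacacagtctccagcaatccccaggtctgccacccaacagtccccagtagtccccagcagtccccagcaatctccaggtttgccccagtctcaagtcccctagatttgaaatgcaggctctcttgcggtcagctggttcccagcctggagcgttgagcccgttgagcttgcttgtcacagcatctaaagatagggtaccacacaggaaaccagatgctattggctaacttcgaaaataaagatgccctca
Olfml3, chr3:103738002-103738251, minus strand: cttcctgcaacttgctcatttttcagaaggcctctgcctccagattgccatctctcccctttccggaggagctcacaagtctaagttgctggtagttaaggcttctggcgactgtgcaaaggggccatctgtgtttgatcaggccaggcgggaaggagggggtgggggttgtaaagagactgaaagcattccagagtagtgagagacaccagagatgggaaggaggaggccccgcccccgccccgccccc

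Of the 33 markers 27 had enough counts to be tested, and 7 of them fell in diencephalon relative to cortical grey matter (quasi-likelihood test of edgeR, p adjusted by Benjamini-Hochberg over 10568 genes, threshold 0.05). These were Cx3cr1, P2ry12, P2ry13, Fcrls, Cd68, Olfml3 and Cd53, which make up 25.9% of the tested markers, where 14.8% of all tested genes were lower. No marker was called higher by edgeR, with 0 at an unadjusted p under 0.05 and 0 with DESeq2, where 14.9%, 19.8% and 11.7% of all genes were higher. DESeq2 called 7 markers lower, beside 12.4% of all genes, and 13 were lower at an unadjusted p under 0.05, beside 19.7% of all genes. The median log2 difference of the 27 was -0.67, against 0.01 over all tested genes. A negative difference was seen for 26 of the 27 and for 49.3% of all tested genes. For Fcrls, Siglech, Ly86, Hpgds and Csf3r the count filter was met by the cortical libraries alone, which favours a lower value in diencephalon. Over all 33 markers, 30 had the lower mean CPM in diencephalon, and Sall1, Tyrobp and Cd14 had the higher one. Without diencephalon replicate 3 the lower markers were 3 of 31 tested, or 9.68% beside 10.8% of all genes. They were 12 of 29 without diencephalon replicate 2 (41.4% beside 11.8%) and 16 of 29 without cortical grey matter replicate 1 (55.2% beside 12.7%). Without a count filter they were 12 of 33 (36.4% beside 10.6%). With limma on log2(TPM + 1) and log2(TPM + 0.1) they were 3 and 2 of 33 (9.09% and 6.06% beside 6.7% and 6.35%). The share of markers was thus below that of all genes without diencephalon replicate 3 and on log2(TPM + 0.1). In RNA purified from whole tissue, fewer microglia, less marker RNA per microglial cell and less RNA of other cells carried through the purification cannot be told apart.

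**Figure D1:**
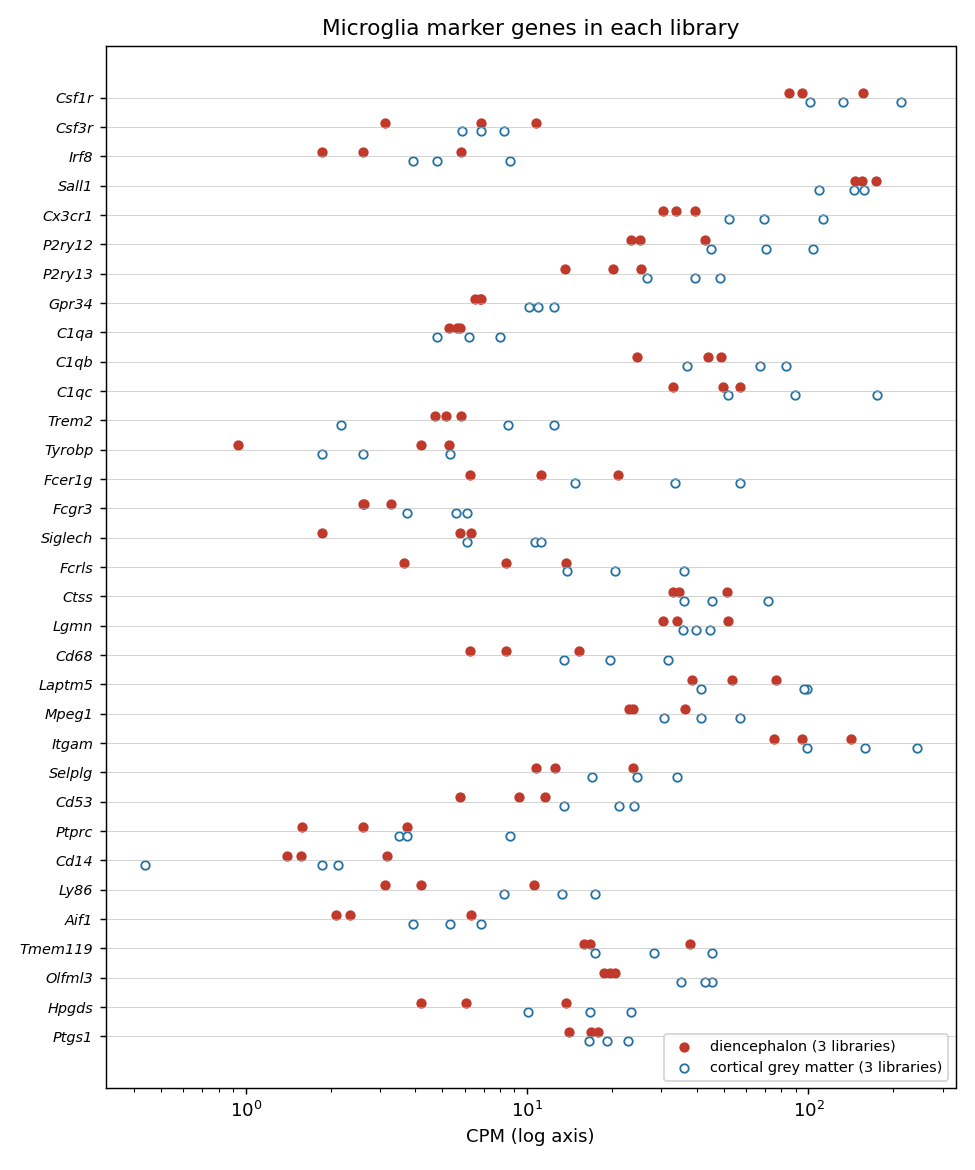
CPM of each of the 33 markers in each library on a log axis, filled points for the 3 diencephalic and open points for the 3 cortical libraries, ordered by role. The points of Cx3cr1, P2ry12, P2ry13, Gpr34, Fcrls, Cd53, Olfml3 and Fcgr3 do not overlap between the regions, and those of the other markers do.

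Of the 4 receptors by which microglia survey the tissue 3 fell, beside 14.8% of all tested genes. Cx3cr1, the receptor of the chemokine Cx3cl1, was at 33.7, 39.5 and 30.3 CPM in diencephalon replicates 1 to 3 and at 52.4, 69.7 and 112 CPM in cortical replicates 1 to 3. The groups did not overlap, and the cortical libraries were spread over a wider range than the diencephalic ones. The log2 difference was -1.16 ± 0.24 (SE), or 2.24-fold lower (edgeR adjusted p = 0.00113), and the call held in all 16 alternative settings.

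P2ry12, the ADP receptor that steers microglial processes to injury, was at 23.4, 42.7 and 25.1 CPM in diencephalon and at 44.9, 70.8 and 104 CPM in cortical grey matter. Its highest diencephalic library, replicate 2, lay just below its lowest cortical one. It was 2.38-fold lower (edgeR adjusted p = 0.00766). P2ry13, a related ADP receptor, was at 20.1, 25.3 and 13.6 CPM in diencephalon and at 26.6, 39.4 and 48.4 CPM in cortical grey matter. Its groups were again narrowly apart, with a 1.91-fold lower level (edgeR adjusted p = 0.00851) that did not pass without diencephalon replicate 3 (0.0709). In the RefSeq table the spans of both genes overlap that of Med12l, and whether reads were counted by strand is not given in the sources used here. Gpr34, a receptor for lysophosphatidylserine, was at 6.55, 6.85 and 6.79 CPM in diencephalon and at 10.9, 10.1 and 12.4 CPM in cortical grey matter. Its groups did not overlap, yet it did not pass (edgeR adjusted p = 0.124), and its span overlaps that of Cask. Non-overlapping lower values were found for 7 of the 27 tested markers, 25.9%, against 20.8% of all tested genes, and among the untested ones for Fcgr3. No tested marker was higher without overlap, against 21.8% of all tested genes.

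Olfml3, a secreted glycoprotein typical of microglia, had the smallest adjusted p of the markers. It was at 19.6, 20.6 and 18.8 CPM in diencephalon and at 35.3, 45.3 and 42.9 CPM in cortical grey matter. Both groups were tight, with means of 19.7 ± 0.876 CPM in diencephalon and 41.1 ± 5.17 CPM in cortical grey matter (SD, n = 3 per region). The 2.08-fold lower level (edgeR adjusted p = 0.000547) passed in all 16 alternatives.

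Fcrls, an Fc receptor-like scavenger protein found in mouse microglia, was at 8.42, 13.7 and 3.66 CPM in diencephalon and at 20.5, 13.8 and 36.0 CPM in cortical grey matter. The highest diencephalic and the lowest cortical value nearly touched. It was 2.68-fold lower (edgeR adjusted p = 0.0145) and did not pass without diencephalon replicate 1 (0.0548) or 3 (0.0625). Cd53, a tetraspanin of leukocytes, was at 9.36, 11.6 and 5.75 CPM in diencephalon and at 13.5, 24.0 and 21.1 CPM in cortical grey matter, without overlap. It was 2.16-fold lower (edgeR adjusted p = 0.0123), a call that ended without diencephalon replicate 3 (0.0789) and without cortical replicate 2 (0.0741). Cd68, the lysosomal protein used to stain phagocytic cells, was at 8.42, 15.3 and 6.27 CPM in diencephalon and at 13.5, 19.7 and 31.7 CPM in cortical grey matter. Here the regions overlapped, and the 2.12-fold lower level (edgeR adjusted p = 0.0254) did not pass without diencephalon replicate 1 (0.0908), diencephalon replicate 3 (0.132) or cortical replicate 3 (0.119).

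**Figure D2:**
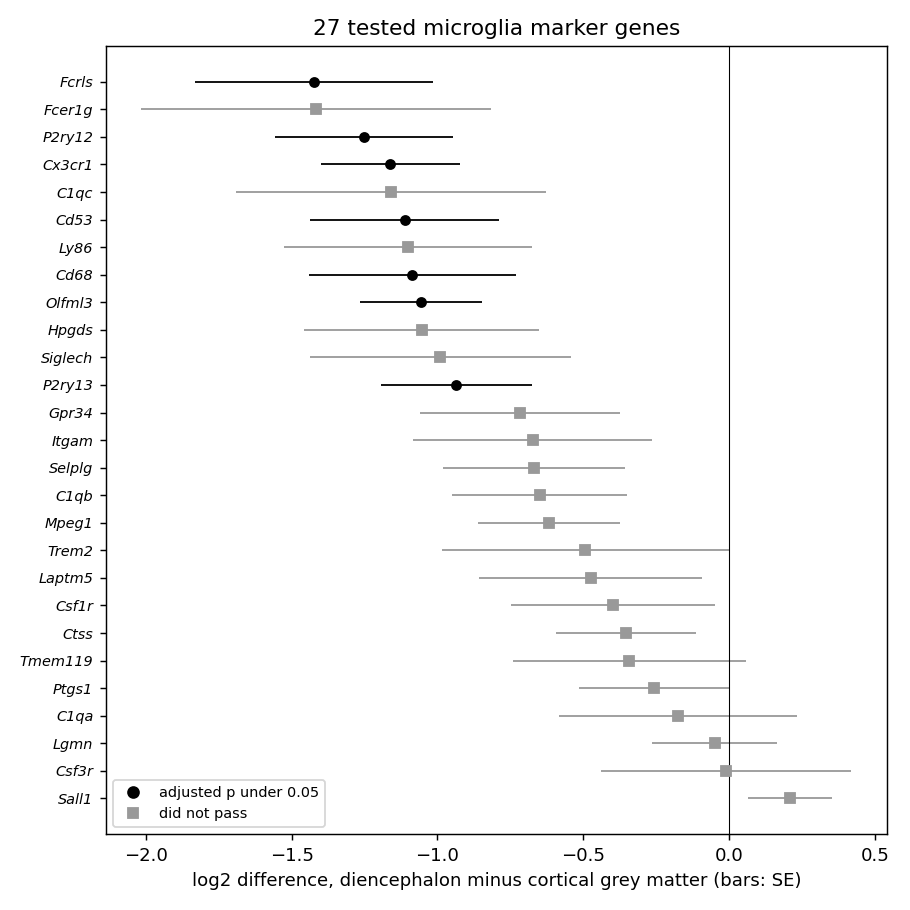
Log2 difference of the 27 tested markers, diencephalon minus cortical grey matter, with standard errors as bars, black circles for genes past the threshold and grey squares for the others. The values run from -1.42 for Fcrls to 0.21 for Sall1, and genes such as Fcer1g and C1qc have differences as large as those called but wider errors.

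None of the 3 complement chains passed the edgeR test, with 0 at an unadjusted p under 0.05 and 0 with DESeq2. Of all tested genes 14.8%, 19.7% and 12.4% were lower by these measures. C1qc was at 49.6, 56.9 and 32.9 CPM in diencephalon and at 51.9, 89.4 and 176 CPM in cortical grey matter (log2 difference -1.16 ± 0.53, edgeR adjusted p = 0.183). Cortical grey matter replicate 1 lay among the diencephalic libraries, and without it the gene passed (0.00179). C1qb had a log2 difference of -0.65 ± 0.30 (edgeR unadjusted p = 0.05002, adjusted p = 0.127) and also passed without that library (0.00631). C1qc and C1qb each passed in 3 of the 16 alternative settings, that one included. C1qa, with 33 counts in diencephalon and 36 in cortical grey matter, had a difference of -0.18 ± 0.41. Of the 5 tested partners of C1q in the cascade and its control 2 fell, beside 14.8% of all tested genes, and Serping1, the inhibitor of the C1 proteases, was one of them. It was at 16.6 ± 4.36 CPM in diencephalon and 47.7 ± 9.32 CPM in cortical grey matter (SD, n = 3 each, edgeR adjusted p = 3.14e-05). Serping1 is also made by vascular and meningeal cells, whose summed markers were 2.25-fold and 5.83-fold lower in the same diencephalic libraries, over 14 and 12 genes. Without the most abundant gene of each list, Vtn and Ptgds, the sums were 1.59-fold and 2.98-fold lower. Their part in the value of Serping1 was not tested.

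Among the immune receptors and their adaptors, Fcer1g, the signalling chain shared by Fc receptors, was at 11.2, 21.1 and 6.27 CPM in diencephalon and at 14.8, 33.5 and 57.1 CPM in cortical grey matter. The regions overlapped through cortical grey matter replicate 1, and the log2 difference of -1.42 ± 0.60 did not pass (edgeR adjusted p = 0.132). It passed without that library (0.00179) or without diencephalon replicate 2 (0.0425). Trem2, the lipid-sensing receptor, had 31 counts in diencephalon and 41 in cortical grey matter and a difference of -0.49 ± 0.49. Its adaptor Tyrobp had 20 counts in diencephalon and 19 in cortical grey matter, and Fcgr3, an Fc gamma receptor, had 17 in diencephalon and 30 in cortical grey matter; neither was tested. Siglech, a sialic acid-binding receptor, had a difference of -0.99 ± 0.45 (edgeR adjusted p = 0.102).

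Of the 5 lysosomal and pore-forming proteins Cd68 alone fell, or 20% beside 14.8% of all tested genes, and both proteases did not pass. Lgmn, which encodes legumain, was at 34.2, 51.7 and 30.3 CPM in diencephalon and at 35.8, 44.7 and 39.8 CPM in cortical grey matter (log2 difference -0.05 ± 0.21, edgeR adjusted p = 0.889). Ctss, the protease cathepsin S, was at 34.6, 51.1 and 32.9 CPM in diencephalon and at 36.2, 45.3 and 72.0 CPM in cortical grey matter (-0.35 ± 0.24, edgeR adjusted p = 0.292). The regions overlapped in both genes. Laptm5, a lysosomal membrane protein, and Mpeg1, the pore-forming protein of phagosomes, had differences of -0.47 ± 0.38 and -0.62 ± 0.24 (edgeR adjusted p = 0.413 and 0.0601). Laptm5 passed without cortical grey matter replicate 1 (0.00955), and Mpeg1 without that library or diencephalon replicate 2 (0.0175 and 0.0236).

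Csf1r, on which microglial survival depends, was at 95.0, 156 and 85.2 CPM in diencephalon and at 101, 133 and 212 CPM in cortical grey matter. The regions overlapped and the log2 difference of -0.40 ± 0.35 did not pass (edgeR adjusted p = 0.457). Irf8, a transcription factor of the myeloid lineage, had 20 counts in diencephalon and 32 in cortical grey matter and was not tested. Csf3r, the receptor for the granulocyte growth factor, had 42 counts in diencephalon and 41 in cortical grey matter (-0.01 ± 0.43). Tmem119, a membrane protein used to tell microglia from other macrophages, was at 15.9, 38.0 and 16.7 CPM in diencephalon and at 17.5, 28.2 and 45.3 CPM in cortical grey matter (-0.34 ± 0.40, edgeR adjusted p = 0.567). Its highest values were in diencephalon replicate 2 and cortical replicate 3.

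Sall1, a zinc finger transcription factor that marks adult microglia among brain cells, was the only tested marker with a positive difference. It was at 174, 156 and 147 CPM in diencephalon and at 157, 145 and 109 CPM in cortical grey matter (log2 difference 0.21 ± 0.14, edgeR adjusted p = 0.296). In cortical grey matter replicate 3, 21 of the 33 markers had their highest cortical value, as did 38.2% of all tested genes. Sall1, the marker with the highest mean CPM, had its lowest value in that library. Within each region its order over the libraries was that of the summed astrocyte markers, which were at 23180, 20190 and 19810 CPM in diencephalon replicates 1 to 3 and at 36130, 34590 and 28820 CPM in cortical replicates 1 to 3. Between the regions the order was the opposite one. Which cells the Sall1 reads came from was not tested, and sums below are given without it unless stated.

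Of the 4 tested adhesion and leukocyte genes Cd53 fell, or 25% beside 14.8% of all tested genes, and 3 did not pass. Itgam, the integrin chain CD11b, was at 94.5, 141 and 75.3 CPM in diencephalon and at 98.6, 159 and 243 CPM in cortical grey matter (log2 difference -0.67 ± 0.41, edgeR adjusted p = 0.295). As for C1qc, cortical grey matter replicate 1 was at the diencephalic level, and the gene passed without it (0.0148). Selplg, a selectin ligand, and Ly86, a partner of the Toll-like receptor family, had differences of -0.67 ± 0.31 and -1.10 ± 0.43 (edgeR adjusted p = 0.116 and 0.0554). Both passed without diencephalon replicate 2 (0.0212 and 0.00902) or cortical replicate 1 (0.0436 and 0.0293). Ptprc had 16 counts in diencephalon and 29 in cortical grey matter, and Cd14 had 12 in diencephalon and 8 in cortical grey matter. Aif1, the calcium-binding protein Iba1, had 21 in diencephalon and 30 in cortical grey matter. All 3 had too few to be tested. Of the prostaglandin enzymes, Hpgds, the prostaglandin D synthase of haematopoietic cells, had a difference of -1.05 ± 0.40 (edgeR adjusted p = 0.0546) and Ptgs1, the cyclooxygenase COX-1, of -0.26 ± 0.26 (0.493). Hpgds passed without diencephalon replicate 2 (0.00762) or cortical replicate 1 (0.0188).

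The markers varied together from library to library. Summed over 32 markers without Sall1, they reached 660.6, 968.7 and 545.1 CPM in diencephalon replicates 1 to 3 and 776.6, 1176 and 1648 CPM in cortical replicates 1 to 3. The mean was 1.66-fold lower in diencephalon, but the groups overlapped, since diencephalon replicate 2 exceeded cortical grey matter replicate 1. With Sall1 the sum was 1.51-fold lower. In diencephalon 28 of the 33 markers were highest in replicate 2, as were 32% of all tested genes. In cortical grey matter 21 were highest in replicate 3, as were 38.2% of all tested genes. Markers in diencephalon replicates 2 and 3 differed from the mean of their region by a median of 0.445 and -0.23 on the log2 scale. In cortical replicates 3 and 1 the medians were 0.445 and -0.463, while the median of all tested genes stayed within 0.01 in every library.

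The libraries richest in markers were also those with little Y-linked signal. Diencephalon replicate 2 and cortical grey matter replicate 3 are the 2 whose Y-linked genes were under 50 CPM, and 18 of the 27 tested markers had their highest value in that library of both regions, 66.7% against 14.5% of all tested genes. Among them were Csf1r, Cx3cr1, P2ry12, C1qb, C1qc, Trem2, Itgam and Tmem119. With 1 such pool in each region, Y-linked signal and everything else particular to these libraries cannot be told apart. Between the regions the sum without Sall1 was 1.62-fold lower among the 4 libraries with 50 CPM or more and 1.7-fold lower between the 2 with less, which are 1 library per region and give no spread. A fit with a term for the 2 libraries called 16 markers lower, or 59.3% of those tested, where 16.6% of all genes were lower. A fit to the 4 libraries with 50 CPM or more called 12 markers lower, where 13.3% of all genes were lower.

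**Figure D3:**
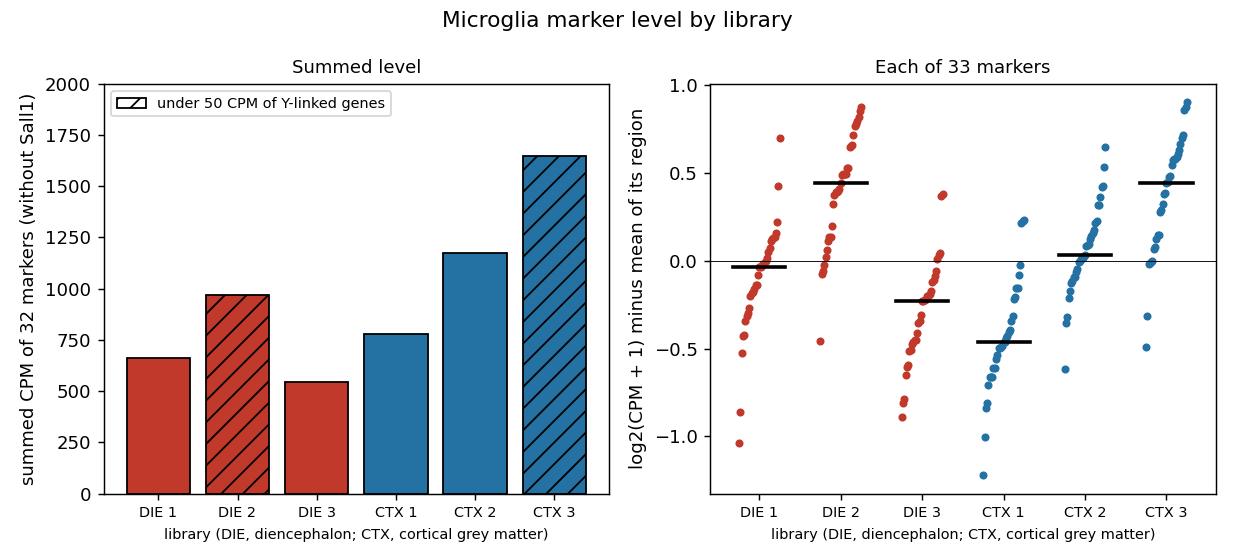
Left, summed CPM of 32 markers in each library, red for diencephalon and blue for cortical grey matter, hatched where Y-linked genes were under 50 CPM; right, the deviation of each of the 33 markers from the mean of its region in log2(CPM + 1), with the median as a black line. The hatched library is the highest of its region in both, at 968.7 CPM in diencephalon and 1648 CPM in cortical grey matter.

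Each marker was also divided by the sum without Sall1 in its own library, which sets the libraries to 1 marker total. Csf1r made up 14.4%, 16.1% and 15.6% of the sum in diencephalon and 13%, 11.3% and 12.9% in cortical grey matter. Ctss made up 5.24%, 5.28% and 6.04% in diencephalon and 4.66%, 3.85% and 4.37% in cortical grey matter, and Lgmn 5.17%, 5.33% and 5.56% in diencephalon and 4.61%, 3.80% and 2.41% in cortical grey matter. These shares were higher in every diencephalic library, as was that of Cd14. P2ry12 took 3.54%, 4.41% and 4.60% of the sum in diencephalon and 5.79%, 6.02% and 6.29% in cortical grey matter. Cx3cr1 took 5.10%, 4.08% and 5.56% in diencephalon and 6.74%, 5.93% and 6.82% in cortical grey matter. Those 2 and Cd68 were the markers whose share was lower in every diencephalic library. The same ratio to the marker sum was apart and higher for 27.5%, and apart and lower for 2.65%, of all tested genes. The sum itself was 1.66-fold lower in diencephalon, which raises this ratio there for genes outside the list. The 27.5% and 2.65% are therefore no background for the shares of the markers. No test was made of these shares, which must add up to a fixed total.

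**Figure D4:**
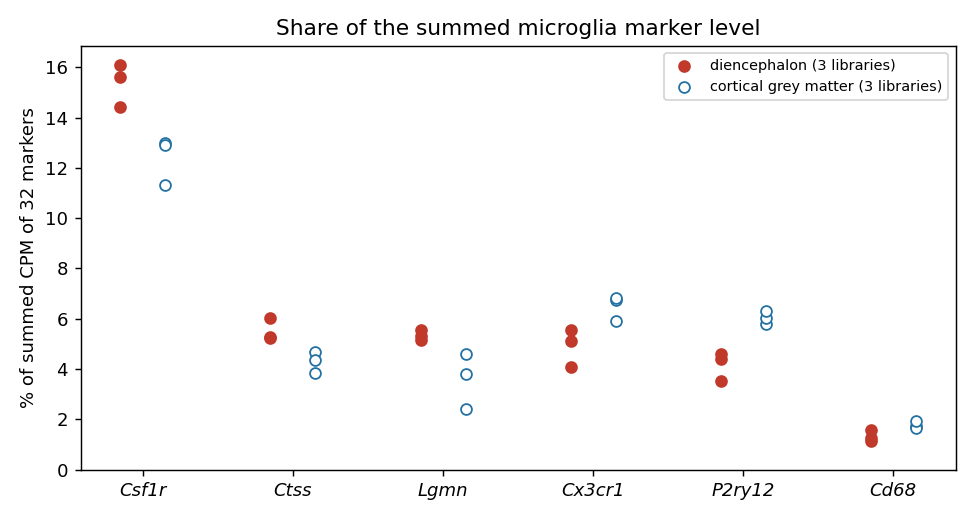
Share of the summed CPM of 32 markers taken by 6 of them in each library, filled points for diencephalon and open points for cortical grey matter. Csf1r, Ctss and Lgmn have higher shares, and Cx3cr1, P2ry12 and Cd68 lower shares, in all 3 diencephalic libraries than in any cortical one.

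Further genes of microglia showed the same direction. Of 38 listed genes 20 were tested, and 3 fell, or 15% beside 14.8% of all genes; none was called higher, with 0 at an unadjusted p under 0.05 and 0 with DESeq2. Their median log2 difference was -0.55, and 19 of 20 were below 0. Tlr7, an endosomal sensor of RNA, was at 4.19 ± 0.911 CPM in diencephalon and 11.9 ± 4.37 CPM in cortical grey matter (SD, n = 3 each, edgeR adjusted p = 0.00938), and Unc93b1, which carries such receptors to the endosome, at 3.58 ± 1.52 CPM in diencephalon and 9.93 ± 3.85 CPM in cortical grey matter (edgeR adjusted p = 0.0180). Tlr7 did not pass without diencephalon replicate 3 (0.0519), nor Unc93b1 without diencephalon replicate 1 or 3 (0.0858 and 0.0745) or cortical replicate 3 (0.0950). The count filter was met by the cortical libraries alone for both genes, which favours a lower value in diencephalon. Spi1 had 5 to 8 counts in the diencephalic and 6 to 11 in the cortical libraries and was not tested.

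Ligands that act on microglia moved both ways. Of 11 tested, 3 fell and 1 rose, beside 14.8% and 14.9% of all genes. Cx3cl1, the chemokine sensed by Cx3cr1 and made by neurons, was at 70.9 ± 22.2 CPM in diencephalon and 122 ± 7.65 CPM in cortical grey matter (SD, n = 3 each, edgeR adjusted p = 0.00168). Il34, the neuronal ligand of Csf1r, was at 5.0 ± 0.967 CPM in diencephalon and 11.1 ± 1.04 CPM in cortical grey matter (edgeR adjusted p = 0.0225). Its count filter was met by the cortical libraries alone, which favours a lower value in diencephalon. The other Csf1r ligand, Csf1, was at 35.2 ± 5.80 CPM in diencephalon and 47.4 ± 15.2 CPM in cortical grey matter and did not pass (-0.43 ± 0.22, edgeR adjusted p = 0.154), though it did without cortical grey matter replicate 3 (0.0334). Cd200, which restrains microglia through their receptor for it, rose, at 47.2 ± 3.65 CPM in diencephalon and 29.8 ± 6.35 CPM in cortical grey matter (edgeR adjusted p = 0.0178). Apoe, a lipid carrier bound by Trem2, was at 1799 ± 182 CPM in diencephalon and 2458 ± 587 CPM in cortical grey matter (edgeR adjusted p = 0.0418). The call of Apoe was lost without any single library but cortical grey matter replicate 3 (0.0525 to 0.198). The calls of Il34 and Cd200 were each lost without diencephalon replicate 2 (0.0804 and 0.0619), diencephalon replicate 3 (0.0715 and 0.0681) or cortical replicate 2 (0.0683 and 0.0914), and that of Il34 also without cortical grey matter replicate 1 (0.0705). Tgfb1 had 0 to 9 counts in a library. Neuron markers differed as well, with 6 of 14 higher and 4 lower, and a sum 2.51-fold lower in diencephalon, or 1.37-fold lower without Camk2a, which held 49.8% of it. Their part in the neuronal ligands was not tested.

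Many genes of activated microglia had few counts or none. Of 16 listed, Ccl2, Ccl4, Ch25h, Clec7a, Cst7 and Il1b had no count in any library, and 6 were tested. Of these Spp1 and Lpl fell, beside 14.8% of all genes. Spp1, which encodes osteopontin, was at 1.87 ± 0.653 CPM in diencephalon and 29.3 ± 19.3 CPM in cortical grey matter (SD, n = 3 each, edgeR adjusted p = 0.000193). Lpl, lipoprotein lipase, was at 4.78 ± 1.99 CPM in diencephalon and 14.6 ± 6.42 CPM in cortical grey matter (edgeR adjusted p = 0.00616). In diencephalon replicates 1 to 3 Spp1 had 3, 3 and 5 counts and Lpl had 6, 9 and 13. Their count filter was met by the cortical libraries alone, which favours a lower value in diencephalon. Both are made by other brain cells too, and which cells the reads came from was not tested.

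Markers of circulating immune cells and of border macrophages were sparse. Of 14 genes of monocytes, neutrophils and lymphocytes, 11 had no count in any library, S100a8, S100a9, Ly6c2 and Cd3e among them, and their sum did not exceed 0.873 CPM. Of 12 border macrophage markers 2 were tested and neither passed. Without Dab2, which alone held 89.8% of their sum, they added up to 3.14 to 11.2 CPM in diencephalon and 12.8 to 13.7 CPM in cortical grey matter. Mrc1, the mannose receptor of those cells, had 6 counts in diencephalon and 18 in cortical grey matter, Lyve1 had 3 in diencephalon and 7 in cortical grey matter, and Pf4 had 1 in diencephalon and 0 in cortical grey matter. Of the astrocyte markers 7 of 16 fell and 1 rose, of the oligodendrocyte and progenitor markers 8 of 14 rose and 3 fell, of the endothelial and mural markers 3 of 7 fell, and of the meningeal and fibroblast markers 11 of 12 fell, where 14.8% of all tested genes were lower and 14.9% higher. The part of these cell types in the microglial values was not tested.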

How the data were processed

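RSEM and the mouse build mm9 are named in the submitters' processing notes; which aligner, versions and strand setting the authors used is not given in the sources used here. The deposited expected counts are RSEM estimates, of which 3.64% to 3.99% per library were not whole; rounding them moved totals by at most 6.94. The deposited TPM values, scaled by effective length and library total, ranked levels and served as an alternative, and the deposited FPKM values were not used. Per the labels' protocols, cDNA was amplified; no molecular identifiers are mentioned.

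Of 23955 genes, 10568 passed the edgeR filter (filterByExpr, minimum count 10). After TMM scaling, the robust quasi-likelihood model of edgeR 4.0.16 (limma 3.58.1, R 4.3.3) was fitted with region as sole term and p-values were adjusted by Benjamini-Hochberg at 0.05. Standard errors derive from the F statistic. CPM are counts over TMM library sizes. The scripts were tested on simulated data. Each library is a pool of 3 mice. Same-numbered libraries did not deviate together, so none were paired. Whether pools of different number shared mice is not given in the labels and was not tested.

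The markers and all lists were chosen with earlier results of these data known. Named genes are all markers and, from each further list, up to 4 with the smallest adjusted p, plus Csf1, Il34, Cx3cl1, Tgfb1, Cd200, Spi1, Slc1a3 and Rpl22, some of which are not reported here; genes named at 0 counts and border macrophage genes were picked after their values were seen. The alternatives comprised RLE size factors, no count filter and a minimum of 30, DESeq2 1.42.0, limma on TPM with pseudocounts of 1 and 0.1 (mean of at least 1 TPM), a replicate block, a term for low Y-linked CPM (4 genes summed), a length offset (natural spline, 5 degrees of freedom) and leaving out each library. Sums without Sall1 and fits within libraries of like Y-linked signal were added after seeing the data.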

Additional observations from a re-analysis of the deposited data

How the results depend on the processing

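No alternative called a marker higher. The 7 lower markers became 12 without a count filter, 16 with the term for low Y-linked CPM, 12 in the 4 libraries of 50 CPM or more, and 3 and 2 with limma on log2(TPM + 1) and log2(TPM + 0.1); on leaving out a library they ranged from 3 to 16. The share of markers was below that of all genes without diencephalon replicate 3 (9.68% beside 10.8%) and on log2(TPM + 0.1) (6.06% beside 6.35%). The cause of these changes in number was not tested. The TPM scale moved the median of all genes to 0.22 and 0.24, with 958 and 908 genes lower and 2118 and 1991 higher, where edgeR had 1559 lower and 1574 higher. Relative to all genes, the marker median was -0.68 with edgeR and -0.71 and -0.75 on the TPM scale. The sum of all 33 markers, Sall1 included, kept its direction in the settings run, at a log2 ratio of -0.60, or -0.81 to -0.35 on leaving out a library. Without Sall1 the log2 ratio over all libraries was -0.728. Of the 7, Cx3cr1 and Olfml3 passed in every setting run, and P2ry12 missed with log2(TPM + 0.1) alone (limma adjusted p = 0.0537). On both TPM scales P2ry13, Fcrls, Cd68, Cd53, Cx3cl1, Lpl, Apoe, Tlr7 and Unc93b1 missed, and in the 4 libraries of 50 CPM or more Tlr7, Unc93b1, Lpl, Il34 and Cd200 missed (edgeR adjusted p = 0.0634, 0.0509, 0.0722, 0.0664 and 0.0979); Cd68 also missed with the length offset (edgeR adjusted p = 0.117) and Il34 with DESeq2 (adjusted p = 0.0640).

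Changes of sign, none of which passed, were seen on log2(TPM + 1), log2(TPM + 0.1) and with the length offset for C1qa (0.045, 0.048 and 0.115) and Lgmn (0.121, 0.122 and 0.046), on the first pair for Csf3r (0.030 and 0.012) and Csmd1 (0.009 and 0.010), and with the offset for Dab2 (-0.032). On leaving out a library the log2 difference ranged from -0.368 to 0.023 for C1qa, -0.868 to 0.045 for Tmem119, -0.994 to 0.011 for Trem2, -0.313 to 0.098 for Lgmn, -0.494 to 0.330 for Csf3r and -0.080 to 0.244 for Dab2.

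With a replicate block 7 markers were lower, 6 of them the same: Fcrls missed (edgeR adjusted p = 0.0559) and Hpgds passed (0.0260). Itgb2 (0.0446) also passed. Same-numbered libraries correlated at 0.059, -0.099 and 0.003 in their deviations. Diencephalon replicates 1 to 3 correlated best with cortical replicates 2, 3 and 1, at 0.154, 0.177 and 0.056. Depth limits the 6 untested markers, with 8 to 32 counts over a region.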

Other observations

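Of the 7 markers that fell, 5 lie on chromosome 3 (P2ry12, P2ry13, Fcrls, Olfml3 and Cd53), as does 1 further marker, Ctss, which did not pass. The spans of P2ry12 and P2ry13 both overlap that of Med12l. Of 497 tested genes on that chromosome, 15.5% were lower in diencephalon, close to the 14.8% of all genes. The grouping was noticed after the values were seen and was not tested.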
